A study of Mus musculus with 41 samples.

Results

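The first exon of Il4 and its immediate surroundings carry 7 CpGs in 1 bisulfite amplicon, which the study numbers CpG22 to CpG28 along the direction of transcription. They were taken by position, as the CpGs on the minus strand within chr11:53431960-53432290 of the mm9 mouse genome, and are 7 of the 64 CpGs covered by the amplicons of the Il4 locus. Il4 (ENSMUSG00000000869.6) is transcribed from the minus strand, and its exon 1 spans chr11:53431977-53432171. CpG22 (position 53432133) and CpG23 (53432124) lie in the 5′ UTR. The coding part of the exon holds CpG24 (53432064), CpG25 (53432040), CpG26 (53432034), CpG27 (53432007) and CpG28 (53431995), the last of which is 18 bases from the end of the exon.

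Il4 encodes interleukin-4, the cytokine that defines T helper 2 (Th2) cells, and GATA3 is the transcription factor that directs the differentiation of naive CD4 T cells into them. Cytosine methylation (5mC) at CpGs can be removed passively, when DNA is copied without renewed methylation, or actively. The TET dioxygenases oxidise 5mC to 5hmC, 5fC and 5caC. The paper gives these forms a part in the passive route too, as the maintenance methyltransferase does not recognise them when DNA is copied. In the active route the DNA glycosylase TDG cuts out 5fC and 5caC so that repair restores an unmodified cytosine. The comparisons ask how the CpGs of this exon lose methylation as Th2 cells form, and what the loss of TET enzymes, of TDG or of GATA3 changes.

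Of the 41 samples of the series, the 35 of naive and Th2 cells were used, which form 31 libraries because 4 libraries appear as 2 samples each. In the first-cycle TDG groups, BS replicates 2 and 3 and PB replicates 1 and 2 carry the same library name in the deposited data, so they were taken as 2 runs of 1 library and added up. Mice were on the C57BL/6 background and 8 to 16 weeks old. Naive CD4+CD25−CD62LhiCD44lo T cells were sorted from spleen and lymph nodes and stimulated through CD3 and CD28 with IL-4 and anti-IFN-γ for 2 days, then grown in IL-2 (3 days in the labels, 4 in the methods). A second cycle added 1 day of rest, 1 day of the same stimulation and 4 days in IL-2, and the labels list no further treatment. Bisulfite (BS) libraries came from naive cells (3), WT Th2 cells of the first cycle (3), and from 2 inducible lines with their controls in both cycles, with 2 libraries in each of those 8 groups. TET iTKO cells carried induced deletions of Tet1, Tet2 and Tet3 (floxed alleles with a Rosa26-EYFP LSL reporter) and TDG iKO cells one of Tdg (floxed, with a Rosa26-H2B-EGFP/GPI-mCherry LSL reporter). The methods report each deletion as incomplete by qRT-PCR, least complete for Tet2. To induce them, 2 mg tamoxifen went to the mice with the deletion and to the controls. Reporter-positive cells were sorted in these lines, so the deleted groups hold cells in which the reporter had been switched on in the mouse. For Gata3, Rosa26-Cas9 T cells received a retrovirus with 1 of 2 sgRNAs and were sorted on day 6 (1 library per guide, labelled Gata3-KD), beside 1 library of Mock cells. Pyridine borane (PB) libraries were made from first-cycle TDG WT and TDG iKO cells and from WT and Tdg-KO cells of a CD4-Cre line, 1 library each. In that line Cre under the T cell-specific Cd4 promoter removes the same floxed Tdg alleles, with the same reporter, and some Tdg mRNA remained. TET-assisted pyridine borane (TAPS) libraries came from naive and Th2 cells, 1 library each.

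A BS level is the percentage of reads that stayed C, which is 5mC plus 5hmC. Unmodified C, 5fC and 5caC are read as T. A PB level is the percentage of 5fC plus 5caC, read as T, with C reads halved as the study did to allow for reads from the opposite strand. A TAPS level is the percentage of reads with T, the form in which that method reads modified cytosines. Values per CpG and library were kept at 100 or more reads, and ranges in parentheses after single values are 95% intervals by the Wilson method. Reads carry no molecular identifiers and copies of 1 molecule count more than once, so these ranges and the limits given for 0 counts take in counting error alone.

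Depth set which members could be followed. Naive replicate 2 had 4 or 5 reads per CpG and none at CpG23, so the naive group keeps 2 libraries here. In the other 24 BS libraries CpGs 24 to 28 had 165 to 3870 reads (median 1132) and CpG22 had 146 to 2027. CpG23 had 20 to 584 reads and reached 100 in 12 of these 24 libraries, so that 6 of the 7 CpGs enter the tests and means of BS data, apart from the Gata3 comparison. CpGs 22 and 23 sit 157 and 166 bases from the upstream end of the 331-base amplicon, near its middle. In 15 libraries CpG22 had 68.3 to 152% as many reads as CpG24 and in 9 libraries 9.13 to 22.9%. These 9 include replicate 2 of each TET group and of both TDG groups of the second cycle, so replicate number goes with the kind of reads, and genotypes are compared below within each replicate number too. Cytosines outside CpGs of the amplicon stayed C in 0.136 to 0.36% of reads in these 24 libraries, which is the background of a BS level.

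The CpGs sit in short windows of the exon. They are printed from the Il4 strand with each CpG in capitals, since neighbouring CpGs within 1 exon take different courses below.
CpGs 22 and 23, chr11:53432116-53432140: tgtctctCGtcactgaCGgcacaga
CpG24, chr11:53432054-53432074: tcttctttctCGaatgtacca
CpGs 25 and 26, chr11:53432025-53432049: ccatatccaCGgatgCGacaaaaat
CpGs 27 and 28, chr11:53431987-53432015: gagatcatCGgcattttgaaCGaggtcac
CpGs 25 and 26 are 6 bases apart and CpGs 27 and 28 are 12 bases apart, so reads of 1 molecule share them and they are not independent measurements.

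In naive cells the exon was almost fully methylated. CpG26 stood highest, at 98.4% and 97.2% in the 2 libraries, and CpG28 lowest, at 87.0% (83.5 to 89.8) and 88.5% (86.1 to 90.6). CpGs 22, 24, 25 and 27 had group means of 92%, 92.4%, 93.8% and 94.7%. By BS, CpG28 was thus the least methylated of the 6 in both naive libraries, with CpG24 next at 91.4% in the first and CpG25 at 91.5% in the other. The naive TAPS library does not show this, with 99.7% at CpG28 on the Il4 strand and its lowest level at CpG24, 90.9%. On the opposite strand CpG28 read 94.2% (93.5 to 94.8), the lowest but for CpG22 with 91.8% of 158 reads.

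The first Th2 cycle took the most percentage points of methylation from the 3′ end of the exon. CpG28 read 31%, 43.2% and 52.6% in the 3 WT Th2 libraries, against 87.8% ± 1.08 (SD, n = 2) in naive cells, and CpG27 read 49.3%, 66.1% and 71.5% against 94.7% ± 2.71. Neither CpG had overlapping groups. CpG28 fell by 45.5 points (adjusted p = 0.00025) and CpG27 fell by 32.4 points (adjusted p = 0.000179). CpG26 fell by 15.0 points to 82.8% ± 6.79 (n = 3, adjusted p = 0.00128), and CpGs 25 and 24 fell by 14.0 and 10.4 points. On the log-odds scale of the test CpG26 lay close to the 3′ end. Its odds ratio was 0.114, beside 0.0966 at CpG27 and 0.103 at CpG28. CpG22 in the 5′ UTR read 85.4% ± 7.72 against 92%, groups that overlap, with an odds ratio of 0.513 (95% interval 0.253 to 1.04, adjusted p = 0.0946). In all, 5 of 6 exon 1 CpGs were lower at an adjusted p under 0.05, where 60.3% of the 63 CpGs tested over the locus were lower. Their median change was −14.5 points beside −9.16 over the locus. Without naive replicate 1 the count was 3, and CpGs 26, 27 and 28 passed in 11 of 11 alternative settings that tested them. The WT Th2 libraries differ widely among themselves, with a mean over the 6 CpGs of 62.9, 73.9 and 80.5%.

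By the end of the second cycle CpGs 27 and 28 had lost most of their methylation in WT cells. Over the 4 WT libraries of both lines CpG28 read 13.2% and 3.62% (TET line) and 3.60% and 6.70% (TDG line). CpG27 read 24%, 13.2%, 11.7% and 13.5% in the same order. The 5′ UTR still held most of its methylation, with CpG22 at 70.2% ± 2.91 (n = 4), and CpGs 24, 25 and 26 lay between at 61.7% ± 5.12, 54.3% ± 2.92 and 54.2% ± 2.89. As a share of the naive level, 76.3% was left at CpG22, 66.8% at CpG24, 57.9% at CpG25, 55.5% at CpG26, 16.5% at CpG27 and 7.73% at CpG28. The order of these 6 shares is the order of these CpGs along the exon, with CpG23 left out. At 20 or more reads CpG23 stood at 72.4% ± 1.81 (n = 4), not under CpG22 upstream of it, so its value does not follow that order. CpGs 25 and 26 do not differ beyond their spread. Against naive cells 6 of 6 CpGs were lower (background 76.2% of 63), with the largest fall at CpG28, by 81 points (adjusted p = 1.49e-07).

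The second cycle itself lowered each of the 6 CpGs tested. From the first to the second cycle of the 2 lines' WT cells, CpG27 fell by 29.9 points (45.5% ± 10.3 to 15.6% ± 5.63, n = 4 and 4, adjusted p = 2.77e-06) and CpG22 fell by 15.0 points (85.2% ± 5.30 to 70.2%, adjusted p = 0.000603). CpG28, which began the cycle at 32.5% ± 9.10, fell by 25.7 points, and CpGs 24, 25 and 26 fell by 21.9, 22.5 and 25.1. All 6 were lower, against 82.6% of the 46 CpGs tested over the locus, so the count alone does not set the exon apart. The falls had a median of 23.8 points in exon 1 and 28.4 over the locus. Within each replicate number 6 of 6 CpGs were lower in both lines, by a mean of 17.1 and 18.1 points in the TET line and 31 and 27.2 points in the TDG line.

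The difference between the ends of the exon was measured in each library, as the mean of CpGs 27 and 28 less the mean of CpGs 22 and 24. It was −1.01 points ± 1.35 in naive cells (n = 2), −31.4 ± 3.81 in WT Th2 cells (n = 3), −45.4 ± 6.75 in first-cycle WT cells of the 2 lines (n = 4) and −54.8 ± 3.48 in their second cycle (n = 4). The naive values lie apart from those of the WT Th2 libraries, with an exact permutation p of 0.1 for 3 libraries against 2, the smallest that design allows. Between the cycles the change of −9.38 points had an exact permutation p of 0.0571 (n = 4 and 4, 2-sided, smallest possible 0.0286) and an adjusted p of 0.0714 over 5 measures. Without replicate 1 of the first-cycle TET WT cells it was −12.1 points with p = 0.0286 (exact), while leaving out any other library gave exact p from 0.0571 to 0.114. These tests pooled the 2 lines, which differ here. The measure went from −40.0 ± 2.49 to −56.2 ± 1.60 in TDG WT cells and from −50.8 ± 3.84 to −53.4 ± 5.06 in TET WT cells (n = 2 each). Replicates 1 and 2 of the TET line read −53.5 and −48.1 in the first cycle and −49.8 and −56.9 in the second. CpG28 was the lowest and CpG27 the second lowest of the 6 CpGs in 12 of 12 WT and Mock Th2 libraries. CpG27 lay 17.5 to 43.4 points under CpG26, 27 bases upstream, in those 12 libraries, and 1.82 and 4.45 points under it in naive cells. In each of these Th2 libraries both CpGs of the 3′ end thus lay under the other 4, with the border within the 27 bases between CpGs 26 and 27.

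CpG23, in the 5′ UTR, 9 bases after CpG22, is known less well. At 20 or more reads it averaged 93.8% ± 5.84 (n = 2) in naive cells, 82.5% ± 2.96 (n = 3) in WT Th2 cells, 89.7% ± 5.35 (n = 4) in first-cycle WT cells and 72.4% ± 1.81 (n = 4) in second-cycle WT cells. The naive libraries had 29 and 48 reads there, with intervals of 73.6 to 96.4% and 89.1 to 99.6%. CpG22 stood at 92, 85.4, 85.2 and 70.2% in the same 4 groups.

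Neighbouring regions of Il4 took different courses from the first to the second WT cycle. The exon 1 mean stood 37 points ± 4.02 above the mean of the 4 promoter CpGs in the first cycle and 20.0 ± 2.43 in the second (n = 4 each), and the distance shrank by 17 points (exact permutation p = 0.0286, the smallest possible, adjusted p = 0.0476 over 5 measures). Against exon 3, which stayed methylated, the exon 1 mean went from −28.8 ± 6.00 to −51.9 ± 3.14 points (exact permutation p = 0.0286, adjusted p = 0.0476). Against intron 1 and exon 2, the next amplicon downstream, it was −9.29 ± 4.65 and −11.4 ± 3.11 points, a change of −2.12 that is smaller than the spread between libraries (exact permutation p = 0.486). These tests pooled the 2 lines, which changed by unlike amounts. Against exon 3 the exon 1 mean went from −33.5 to −50.7 points in TET WT and from −24.1 to −53.1 in TDG WT cells (n = 2 each). Against the promoter it went from 36.8 to 21.5 and from 37.3 to 18.5 points. In both lines the exon therefore lost more between the cycles than the promoter and exon 3. A difference from intron 1 and exon 2 was not detectable with 4 libraries a group.

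In TET iTKO cells, with their incomplete deletions, the exon kept most of its methylation. In the second cycle CpG28 read 76.9% (70.6 to 82.2) and 85.8% (84.0 to 87.4) in TET iTKO cells, against 13.2% and 3.62% in WT cells of that line. CpG27 read 75.1% and 84.2% against 24% and 13.2%. The groups do not overlap at either CpG, and the differences were 72.9 points at CpG28 (adjusted p = 3.35e-06) and 61.1 points at CpG27 (adjusted p = 1.46e-07). CpG25 differed by 38.5 points, CpG26 by 36.7, CpG22 by 25.3 and CpG24 by 24.8, so that 6 of 6 CpGs were higher, where 68.3% of the 60 CpGs tested over the locus were. The median difference was 37.6 points in the exon and 26.2 over the locus. It was larger in the promoter, at 43.4 points, and in CNS1, a regulatory region 5′ of Il4, at 62.6. In exon 3 it was −0.113 points.

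In the first cycle 5 of 6 CpGs were higher in TET iTKO than in WT cells (background 61.7% of 60), with a median difference of 20.4 points beside 12.5 over the locus. Here too the median was larger in CNS1, at 40.8 points, and in the promoter, at 31.7. CpG27 read 86.6% and 92% against 36.0% and 37.3%, a difference of 52.7 points (adjusted p = 2.59e-06). CpG25 read 99.5% and 97% against 74.7% and 74.5%, a difference of 23.7 points. Its odds ratio of 17.7 (95% interval 4.23 to 73.7) was above those of CpGs 27 and 28, 14.7 and 11, so the 3′ end leads in points only. CpG28 read 63.3% and 91.2% against 29.8% and 20.9%, and the 2 TET iTKO libraries are further apart there (SD 19.7) than at any other of the 6 CpGs in any group. CpG24 read 86.2% and 95.2% against 89% and 75.3%, overlapping groups with an odds ratio of 2.30 (95% interval 1.00 to 5.28, adjusted p = 0.0723). Within replicate 1 the mean difference over the 6 CpGs was 21.6 points with 5 CpGs higher, and within replicate 2 it was 34.6 points with 6 higher. In the second cycle the same means were 39.7 and 46.7 points with 6 higher in both.

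The pattern along the exon flattened with TET deletion. The 3′ end minus 5′ part measure was −9.95 points ± 7.65 and −11.4 ± 8.12 in TET iTKO cells of the first and second cycle, against −50.8 ± 3.84 and −53.4 ± 5.06 in their WT controls (n = 2 each, no overlap, exact permutation p = 0.333 in both cycles, the smallest possible). CpG28 was lowest in 2 of 4 TET iTKO libraries and CpG27 second lowest in 1 of 4, but both lay under the other 4 CpGs in 3 of 4. Relative to naive cells, 2 of 6 CpGs of TET iTKO cells were lower in the second cycle (background 20% of 60), CpG27 by 15.0 points (79.7% ± 6.44 against 94.7%, adjusted p = 0.026) and CpG26 by 7.52 points (90.3% ± 2.53 against 97.8%, adjusted p = 0.0447). These calls rest on single libraries: 0 CpGs passed without naive replicate 1 or without naive replicate 3, and 1 passed without naive replicate 2 or without either TET iTKO library. At CpG28 the values were 81.3% ± 6.28 and 87.8% ± 1.08, with an odds ratio of 0.641 (0.223 to 1.84). Between its 2 cycles TET iTKO cells had 0 of 6 CpGs changed by the quasi-binomial test (11.7% of 60 over the locus), 0 at an unadjusted p under 0.05. With limma 0 were called, 2 had an unadjusted p under 0.05 and the smallest adjusted p was 0.0854. The largest difference was at CpG27, 89.3% ± 3.82 and 79.7% ± 6.44 (odds ratio 0.481, 0.225 to 1.03).

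Loss of TDG left the BS levels of the exon near those of WT cells. In the second cycle CpG28 read 6.75% and 7.85% in TDG iKO cells and 3.60% and 6.70% in WT cells, and CpG27 read 20.7% and 20.6% against 11.7% and 13.5%. The groups do not overlap at CpGs 25 to 28, which are 4 of the 6. At CpG27 the distance of 8.01 points had an odds ratio of 1.77 (0.849 to 3.68, adjusted p = 0.901). CpGs 25 and 26 lay the other way, with differences of −8.37 and −8.86 points. In the first cycle CpG27 too lay lower in TDG iKO cells without overlap, at 52.7% and 46.9% against 53.8% and 55.0%, a difference of −4.59 points. The quasi-binomial test called 0 of 6 CpGs in the first cycle (background 0% of 46) and 0 of 6 in the second (background 0% of 63). In both cycles 0 passed at an unadjusted p under 0.05 and 0 with limma. Over the 6 CpGs the odds ratios ran from 0.688 to 0.982 in the first cycle and from 0.723 to 1.77 in the second. Their intervals are wide at the nearly empty CpG28 (0.297 to 6.48 in the second cycle) and narrower at CpG26 (0.463 to 1.13). Within replicates 1 and 2 the mean differences were −2.42 and −3.84 points in the first cycle and −3.40 and 0.511 in the second. TDG iKO cells kept the order of the WT pattern, with CpG28 lowest and CpG27 second lowest in 4 of 4 libraries, and a 3′ end minus 5′ part measure of −38.7 points ± 1.27 and −50.3 ± 3.33 in the 2 cycles beside −40.0 ± 2.49 and −56.2 ± 1.60 in WT cells (n = 2 each). In the second cycle the groups of this measure do not overlap (difference 5.87 points, exact permutation p = 0.333, the smallest possible). They also lost methylation from the first to the second cycle at 6 of 6 CpGs (background 80.4% of 46), from 38.7% ± 0.685 to 7.30% ± 0.774 at CpG28 (adjusted p = 0.0021).

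The effects of the 2 deletions were compared directly on the log-odds scale. The TET effect exceeded the TDG effect at 5 of 6 CpGs in the first cycle (background 65.2% of 46) and at 6 of 6 in the second (background 63.3% of 60). The difference of the effects was 57.3 points at CpG27 in the first cycle (adjusted p = 1.86e-05) and 70.8 points at CpG28 in the second (adjusted p = 0.00203). The WT controls of the lines differed among themselves in the first cycle, when CpG27 read 36.0% and 37.3% in the TET line and 53.8% and 55.0% in the TDG line. That was the only exon 1 CpG called of 6 (background 21.7% of 46), by −17.8 points with an adjusted p of 0.0474. The call does not hold without any 1 of the 4 libraries, each of which left 0, nor with limma (0), while a fit of these 2 groups alone called 4. The levels of CpG27 lie about as far apart whichever library is left out. In the second cycle 0 of 6 were called (background 0% of 63), with 0 at an unadjusted p under 0.05 and 0 with limma, and the median difference was 3.21 points.

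PB sequencing read 5fC and 5caC at the same CpGs in first-cycle cells, and TDG-deleted cells had their highest levels in the exon at CpG28 on the Il4 strand and at CpG27 on the other. Each group is 1 library, so Fisher's exact test here compares libraries and not genotypes. On the Il4 strand CpG28 read 5.72% (5.07 to 6.44) in TDG iKO cells and 0.493% (0.316 to 0.768) in WT cells of the inducible line. The difference of 5.22 points was the largest of the 47 CpGs tested over the locus on that strand. CpG27 read 1.57% and 0.570%, a difference that just reaches the 1 point required. It falls short in the first of the 2 runs alone and when C reads are not halved, which leaves 1 call in either case. CpG26 read 1.03% and 0.130%, CpG25 0.740% and 0.233% and CpG24 0.477% and 0.0778%, differences past an adjusted p of 0.05 but under 1 point. CpG22 lay the other way, at 0.219% and 0.449%, and was not called. CpG23 had 0 T reads of 329 in TDG iKO cells, where 3 T reads would be a level of 1.81% and the 95% interval reaches 2.28%. In all, 2 of 7 CpGs were called, where 36.2% of the 47 were. Cytosines outside CpGs of the amplicon gave 0.243% in the TDG iKO and 0.253% in the WT library, and the 5 CpGs of exon 3 averaged 0.349% and 0.271%, so the WT values of CpGs 24 to 26 lie at or under background.

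The opposite strand showed the same end of the exon with another CpG on top. There CpG27 read 7.30% (6.64 to 8.02) in TDG iKO and 0.771% (0.560 to 1.06) in WT cells, the largest difference of that strand over the locus at 6.53 points, and CpG28 read 4.58% and 0.709%. These 2 were called of 7 (background 42.6% of 47). At CpG27 the strands thus carried 1.57% and 7.30%, with intervals that do not overlap, while CpG28 carried 5.72% and 4.58%. The difference between strands was not tested further, and C reads of both strands overlap in this assay.

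The CD4-Cre line repeated the CpG28 signal and the difference between strands. CpG28 read 6.22% (5.27 to 7.34) in Tdg-KO and 0.160% (0.0682 to 0.373) in WT cells on the Il4 strand, the only one of 7 CpGs called there (background 48.9% of 47). The difference of 6.06 points was not the largest over the locus on that strand, which was 9.18 points, in CNS1. CpG27 on that strand read 0.0506% (0.00893 to 0.286) and 0.0639%, at or under the level outside CpGs of 0.189 to 0.253%. On the opposite strand CpG27 read 13.6% (12.3 to 15.0) against 1.34% (1.02 to 1.76), a difference of 12.2 points and the largest on that strand over the locus. CpGs 25 to 28 were all called there, 4 of 7 (background 51.1% of 47), with CpG28 at 3.56%. On the Il4 strand the WT library of this line read 1.23% at CpG25 and 1.27% at CpG26, above its background, beside 0.233% and 0.130% in the WT library of the other line. The Tdg-KO library read 2.2% at CpG25 and, lower than WT, 1% at CpG26. CpG24 (0.0504% against 0.159%) and CpG22 (0 T reads of 165 against 1 of 221) also lay lower in Tdg-KO cells on that strand. When the 4 libraries of the Il4 strand were fitted together with the line as a block, 1 of 7 CpGs was called (background 19.1% of 47). It was CpG28, with an odds ratio of 18.5 (4.08 to 84.0) and an adjusted p of 0.0268, which became 0.125 with limma. Across 6 CpGs the PB level in TDG iKO cells and the fall of the BS level in TDG WT cells between naive and first cycle had r = 0.846 on the Il4 strand and 0.887 on the other. These points share 1 amplicon and the same libraries.

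TAPS, which needs no bisulfite, also put CpGs 27 and 28 lowest in Th2 cells on both strands, while the other 5 CpGs took another order than by BS. On the Il4 strand CpG28 went from 99.7% (99.5 to 99.8) in the naive to 24.8% (23.8 to 25.9) in the Th2 library, and CpG27 from 93.9% to 31.2%. The falls at the other 5 ran from 10.2 points at CpG23 to 30.5 at CpG26, and CpG23 is here read at 155 and 223 reads. All 7 were lower in the Th2 library by 10 points or more with an adjusted p under 0.05 by Fisher's exact test (background 80.9% of 47), and the fall of 74.9 points at CpG28 was the largest over the locus on that strand. With C reads halved as for PB, CpGs 22 and 23 differ by −9.49 and −5.47 points, under the minimum of 10, and 5 are called. On the opposite strand 6 of 7 were (background 78.7% of 47), all but CpG22 with 91.8% and 81.9%. Across the 7 CpGs the Th2 levels of the strands had r = 0.977, and across 6 CpGs TAPS and BS levels in Th2 cells had r = 0.934, points from 1 amplicon in each case. The level itself was lower by TAPS than by BS in Th2 cells at 6 of 7 CpGs, by 31.1 points at CpG27, 17.5 at CpG28, 17.3 at CpG26 and 12.6 at CpG24, and at CpG28 the naive level was 12 points higher by TAPS. CpGs 24, 26, 27 and 28 lie under the range of the BS libraries of WT Th2 cells, which at CpGs 27 and 28 is 49.3 to 71.5% and 31 to 52.6%, and CpG23 lies above it, where BS has 52 to 109 reads a library. Over all 8 first-cycle WT and Mock libraries the range at CpG28 is 20.9 to 52.6%, which holds the TAPS level. At CpG27 it is 36 to 71.5%, which does not. If C reads are halved, the TAPS levels of Th2 cells are 47.5% at CpG27 and 39.8% at CpG28. What part that, or the cells used, has in the distance was not tested.

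Methylation was higher with Gata3 sgRNAs than in Mock cells, by the most percentage points at the 3′ end of the exon. CpG28 read 63.5% (61.4 to 65.5) with the first guide, 55.7% (53.6 to 57.7) with the second and 26.6% (24.5 to 28.7) in Mock cells, and CpG27 read 75.0%, 75.9% and 43.9%. Both guides lie above Mock at each of the 7 CpGs. Over all 8 first-cycle WT and Mock libraries, levels reached 92.2% at CpG22, 89.5% at CpG24, 88.2% at CpG25 and 89% at CpG26. Both guides lie within that range at CpG22. At CpGs 25 and 26 the first guide lies within it and the second above. At CpG24 the guides, at 90% and 90.4%, lie just above it. The range ends at 71.5% at CpG27 and 52.6% at CpG28, under both guides. The mean of the guides differed from Mock by 33.0 points at CpG28 and 31.6 points at CpG27. The other 5 differed by 8.70 points at CpG22 to 13.5 points at CpG25, and the median over the 7 was 11.7 points beside 8.47 over the locus. CpG23 was deep enough here, at 96.4% and 95.5% against 84.3%. Its odds ratio of 4.33 was above those of CpGs 27 and 28, 3.93 and 4.07, so the ranking holds in points only. The 3′ end minus 5′ part measure was −19.6 and −24.8 points with the guides and −45.4 in Mock cells. It ran from −53.5 to −28.7 points over the 8 first-cycle WT and Mock libraries. These are values of 3 libraries. The planned fit takes the 2 guides as replicates and assumes that the single Mock library varies like the other groups, so the 2 of 7 CpGs it called (background 20.3% of 64) are not used as a test of Gata3. The count is 0 without the library of the first guide, 1 without that of the second and 1 with limma.

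CpG29, 72 bases downstream of CpG28 in intron 1 and in the next amplicon, continued the 3′ pattern. It read 90.7% ± 2.53 in naive cells (n = 3), 51.7% ± 12.3 in WT Th2 cells (n = 3) and 10.3% ± 2.59 in second-cycle WT cells (n = 4), while TET iTKO cells of the second cycle stood at 84.2% ± 3.96 (n = 2). With Gata3 sgRNAs it read 65.9% ± 2.26 (2 guides) and in Mock cells 30.1%. The study marks GATA motifs, GATA or its reverse complement TATC, along this stretch, and a search of both strands found 3 matches in the amplicon. On the Il4 strand they are GATA at chr11:53432149-53432152, ahead of CpG22, TATC at chr11:53432043-53432046, 6 bases before CpG25, and TATC at chr11:53431964-53431967, 28 bases after CpG28. Of the 358735 stretches of 331 bases that tile chromosome 11 without overlap, 30.1% hold as many or more. Beyond the amplicon 2 GATA matches precede CpG29 by 24 and 13 bases, in capitals in the sequence of the Il4 strand.
GATA matches before CpG29, chr11:53431932-53431948: aGATAcccaggtGATAc
CpGs 27 and 28, which among the 6 CpGs had the largest falls from naive to WT Th2 cells and the largest differences with Gata3 sgRNAs, lie between the TATC match ahead of CpG25 and the one after CpG28, as do CpGs 25 and 26. A match of letters is a description only.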

How the data were processed

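The deposited files give, per the file headers and as the authors made them, a count of C reads and a count of C plus T reads for each cytosine of the amplicons, mapped by BSMAP to mm9 allowing 5 mismatches in BS and 0 in PB reads. Runs of 1 library were added up, and values under 100 reads in a library were left out. BS contrasts were tested over all CpGs of the Il4 locus, with a quasi-binomial regression per CpG over the 12 BS groups (Williams weights for variance between libraries, dispersion moderated with limma 3.58.1 in R 4.3.3), 2-sided, and Benjamini-Hochberg adjustment within each of 15 contrasts. PB and TAPS used Fisher's exact test per CpG on T and C reads, with a minimum difference of 1 and 10 points, and the 4 PB libraries were also fitted together with the mouse line as block. Single values per library used exact permutation tests (Python 3.11.15, scipy 1.17.1, numpy 2.4.6, pandas 2.3.3). The methods were tested on simulated data. The labels do not say that replicates came from separate animals, so p-values measure the spread between these samples. All 7 CpGs are named, with CpG29 as the next one. The planned mean over 7 CpGs and the planned 5′ part with CpG23 could not be formed for naive cells, so 6 CpGs without CpG23 were used, a choice made after seeing the data. Members, lists and comparisons were chosen with earlier results of these data known. Alternatives were the read minimum (20 and 500), limma on log2 ratios, only the compared groups, a replicate block, runs kept apart, each library left out, correction for background, C reads not halved, and, added later, crossed pairs, the plus strand for PB and TAPS, and C reads of TAPS halved. Samples of macrophages in the series (6) were not used. 1 allele of the inducible lines is not reported here.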

Additional observations from a re-analysis of the deposited data

Results flagged for a closer look

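At CpG27, replicate 1 of the second-cycle TET WT cells read 24%, while the other 3 WT libraries of that cycle read 11.7 to 13.5%. The same library also stood apart in its mean over 6 CpGs, at 48.3% where the others lay between 41.8 and 42.9%. Among 14 such comparisons of 4 libraries these 2 had a sample far from the rest, and chance gives about 1 in 20 for a single comparison. The 2 are not independent, since they concern the same library and CpG27 enters the mean. The comparisons also share 1 amplicon, so that rate does not give the chance of 2 flags. The effect of TET deletion differed from that of TDG deletion by the direct test of the difference. In the first cycle it exceeded the TDG effect by 18.7 points at CpG22, 23.2 at CpG25, 22.7 at CpG26, 57.3 at CpG27 and 52.9 at CpG28. In the second cycle the distances were 28.6 points at CpG22, 23 at CpG24, 46.9 at CpG25, 45.5 at CpG26, 53.1 at CpG27 and 70.8 at CpG28.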

How the results depend on the processing

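Over 67 results and 522 alternatives, 467 kept the direction and the side of the threshold or stayed within the spread. The counts of exon 1 CpGs called moved as follows, and the cause was not tested. For naive against WT Th2 cells of the first cycle (5) the count was 0 at 500 reads, where 1 CpG is left to test, 3 with only the compared groups, still 3 when a replicate block was added to that fit, and 3 to 6 when 1 library was left out. For TET iTKO against WT in the first cycle (5) only the compared groups gave 5 and the replicate block added to that fit gave 2. Replicate numbers did not pair the libraries by correlation, which was −0.261 in that contrast, and crossed pairs, added after seeing the data, gave 6. For TET iTKO against WT in the second cycle (6) only the compared groups gave 6. The replicate block added to that fit gave 5, without CpG22. For TET iTKO of the second cycle against naive cells (2), leaving out 1 library gave 0 to 1. For the WT cells of the TET against the TDG line in the first cycle (1) the count was 0 at 20 reads, 0 with limma, 0 where each library must reach the minimum, 4 with only the compared groups and 0 when any library was left out. For Gata3 sgRNAs (2) it was 1 with limma, 7 with only the compared groups, and 0 to 1 without 1 library. In PB of the inducible TDG line (2) it was 1 without halving, 5 without the minimum difference and 1 in run 1 alone. In the CD4-Cre line (1) it was 2 with background taken off, 2 without the minimum difference and 4 on the plus strand, and over both lines (1) limma gave 0.

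The PB mean difference over the CpGs moved from 1.11 points in the inducible TDG line to 0.570 without halving, 1.30 at 500 reads and 1.73 on the plus strand, and from 0.820 in the CD4-Cre line to 0.425, 1.33 and 2.78. The TAPS mean difference of −34.6 points was −24.4 with C reads halved and −30.1 on the plus strand. With 7 CpGs at 100 reads, which leaves fewer libraries, the mean changed by −21.6 points between the WT cycles (exact permutation p = 0.333), and the sign turned for TDG iKO against WT in the second cycle (0.655 in place of −1.45) and for the WT cells of both lines in that cycle (−1.29 in place of 2.43). Leaving out 1 library gave −3.70 to 0.803 and −0.802 to 5.66 for these 2, and −6.18 to 1.33 for TET iTKO between cycles. The 3′ end minus 5′ part measure turned for TDG iKO against WT in the first cycle (1.35) to −0.730 with CpG23 at 20 reads and −3.96 at 100, with −0.413 to 3.11 without 1 library. For the WT cells of both lines in the second cycle (2.86) it was −0.982 with CpG23 and −0.718 to 6.44 without 1 library, for TET iTKO between cycles −7.18 to 4.31, and between the WT cycles −12.1 to −7.00. The TET effect on the exon 1 mean less the promoter mean (−1.89 in the first and 1.84 in the second cycle) was −6.72 to 2.94 and −1.42 to 5.11 without 1 library. Each result that turned had a value smaller than the spread between its libraries.

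Depth limits what can be said. Naive replicate 2 stays out at 20 reads too. Where each library must reach the minimum, no exon 1 CpG is left in the contrasts with naive cells. At 500 reads exon 1 CpGs are left only in the first naive contrast and the Gata3 comparison. Replicate numbers were taken within a line, so no replicate block was fitted for the naive against second-cycle contrasts, the comparison of WT lines or Gata3. With 1 library left out, the lone library of a group is assumed to vary like the other groups, and with 2 libraries against 2 no exact test can pass 0.05.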
